A study of Mus musculus with 18 samples.

Results

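Zinc exporters of the Slc30a (ZnT) family, the metallothioneins Mt1 and Mt2 and the metal-responsive transcription factor Mtf1 were followed across 3 shRNA groups of myotubes. The set holds 10 genes, of which 8 had a probe set of their own among the 22180 genes tested. It was chosen with earlier results of these data known, and it leaves out some genes of these families, which are given further below. Slc30a5 was picked for having the second largest fall with Mef2c shRNA, and the other genes were picked by family, to see whether the relatives of Slc30a5 and zinc-responsive genes followed it. Its fall is therefore a description without a test, and so is its difference between the 2 targeting shRNA groups. The probe sets for Slc30a1, the zinc exporter of the plasma membrane, also carry the symbol 1700034H15Rik, and those for Slc30a10, a manganese exporter of the same family, carry Gm2061. Neither gene is reported for that reason, and each of the other 8 was measured by 1 probe set named for it alone.

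The cells were C2C12, a line of mouse muscle precursors that fuse to form myotubes once serum is lowered. They were grown with 20% fetal bovine serum, shifted to 2% horse serum to differentiate, infected 36 h later with an shRNA lentivirus, and harvested 48 h after infection. There were 3 groups of 6 arrays: control shRNA, Nup210 shRNA, aimed at a membrane protein of the nuclear pore, and Mef2c shRNA, aimed at a muscle transcription factor. All groups shared the line, the media, the infection and the times, and the labels name no hairpin sequence or clone, and do not say that arrays came from separate cultures, so the p-values speak only of the spread among these arrays, which may be technical.

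Zinc is a structural or catalytic part of many proteins, and cells keep very little of it free in the cytosol. ZnT exporters move it from the cytosol into organelles or out of the cell, and the ZIP importers (Slc39a genes) move it the opposite way. Metallothioneins are small cysteine-rich proteins that bind zinc and copper, and MTF-1, the product of Mtf1, senses zinc and activates metallothionein genes and Slc30a1 through metal response elements (MREs) in their promoters.

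Mef2c itself was lower on the Mef2c shRNA arrays. Its log2 value ran from 10.10 to 10.54 on the control arrays and from 7.51 to 8.08 on the Mef2c shRNA arrays, 17.9% of control (two-sided exact permutation p = 0.00216, the smallest that 6 against 6 arrays can give). The Nup210 probe set did not distinguish its group from control: 5.54 to 5.79 on the arrays labelled Nup210 shRNA against 5.57 to 5.81 on the control arrays, 93.1% of control (exact permutation p = 0.0801). Without control array 6 that p was 0.0303 and without Nup210 array 6 it was 0.0498, and the probe set lay close to the level of receptor genes that muscle is not known to use (5.47 at their 95th percentile). Against the Mef2c shRNA arrays the Nup210 probe set was lower (log2 difference -0.23, 95% interval -0.37 to -0.10, limma adjusted p = 0.0178), though the arrays overlapped. The label of that group therefore has no clear check against control in its own target. The directions drawn from it below belong to the arrays as labelled. Array medians ran from 5.48 to 5.57, arrays of a group correlated at 0.991 to 0.995 across genes, and the number of arrays limits the precision, with a median standard error (SE) of 0.080 over the log2 differences of all genes. All 8 myotube markers were above that receptor level. Their mean log2 level ran from 11.71 to 11.79 on the control arrays, 11.61 to 11.70 with Nup210 shRNA and 11.52 to 11.65 with Mef2c shRNA. The part of this shift in the results below was not tested, and in these bulk samples fewer cells of a type and less RNA per cell cannot be told apart.

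Promoters are shown for the exporters that differed most and for the metallothioneins, because MTF-1 acts through MREs. Other elements through which a gene may answer to zinc were not searched, so the matches do not decide whether genes share a zinc response. Each window is the 250 bases before the RefSeq start in assembly GRCm38.p6, read 5′ to 3′ on the gene's strand. Capitals mark matches on either strand to the MRE cores TGCACNC and TGCGCNC. The windows are Slc30a5 at chr13:100833428-100833677 (minus strand), Slc30a4 at chr2:122702664-122702913 (minus), Mt1 at chr8:94178839-94179088 (plus) and Mt2 at chr8:94172368-94172617 (plus).
Slc30a5: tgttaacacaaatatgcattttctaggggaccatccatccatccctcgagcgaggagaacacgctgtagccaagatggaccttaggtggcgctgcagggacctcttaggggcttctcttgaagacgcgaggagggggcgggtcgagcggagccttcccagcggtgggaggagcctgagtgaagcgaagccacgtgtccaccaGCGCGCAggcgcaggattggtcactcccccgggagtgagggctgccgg
Slc30a4: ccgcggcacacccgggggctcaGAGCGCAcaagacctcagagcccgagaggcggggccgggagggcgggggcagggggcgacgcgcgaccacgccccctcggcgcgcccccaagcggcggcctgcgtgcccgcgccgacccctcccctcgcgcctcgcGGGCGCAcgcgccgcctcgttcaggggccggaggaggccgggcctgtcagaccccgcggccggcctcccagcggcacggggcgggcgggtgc
Mt1: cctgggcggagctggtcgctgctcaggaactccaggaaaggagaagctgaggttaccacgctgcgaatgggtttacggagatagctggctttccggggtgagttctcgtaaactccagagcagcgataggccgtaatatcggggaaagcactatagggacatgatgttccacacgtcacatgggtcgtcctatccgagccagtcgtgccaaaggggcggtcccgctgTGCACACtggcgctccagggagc
Mt2: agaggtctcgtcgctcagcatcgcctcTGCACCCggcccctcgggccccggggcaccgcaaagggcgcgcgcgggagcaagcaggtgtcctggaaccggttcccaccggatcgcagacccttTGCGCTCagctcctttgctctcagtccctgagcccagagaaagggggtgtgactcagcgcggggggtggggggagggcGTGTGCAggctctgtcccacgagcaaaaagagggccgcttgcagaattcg
All 10 genes of the set had such a window. Mt2 held 3 core matches, beginning 223, 128 and 50 bases before the start, and Mt1 held 1, at 23 bases. Slc30a4 held 2, at 228 and 92 bases, and Slc30a5 held 1, at 48 bases. Slc30a6, Slc30a7, Slc30a9 and Mtf1 held 0, Slc30a1 held 1 and Slc30a10 held 3, of which 2 overlapped. Among 32851 mouse promoter windows of the same length, 21.4% held at least 1 core, 5.17% at least 2 and 1.26% at least 3. The MEF2 consensus site was in 0 of the 10 windows and in 0.508% of all windows. A match is a description of the letters, and a window without one says only that these letters are not in it. Bases after the RefSeq start or farther upstream were not counted. The counts therefore depend on the start used and need not hold all MREs of Mt1 or of any other gene.

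Slc30a5 encodes ZnT5, which pairs with ZnT6 in the early secretory pathway and supplies zinc to enzymes made there, alkaline phosphatases among them. Its log2 values on the control arrays 1 to 6 were 9.56, 9.60, 9.67, 9.61, 9.54 and 9.62. On the Mef2c shRNA arrays they were 8.12, 7.85, 8.01, 8.08, 7.93 and 7.82. The groups lay far apart, with the highest Mef2c shRNA array more than a log2 unit below the lowest control array. The arrays labelled Nup210 shRNA read 9.75, 9.56, 9.53, 9.61, 9.71 and 9.67, and overlapped the control arrays. Mean levels were 9.60 ± 0.045 with control shRNA, 9.64 ± 0.086 with Nup210 shRNA and 7.97 ± 0.12 with Mef2c shRNA (SD, n = 6 each).

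With Mef2c shRNA, Slc30a5 was therefore at 32.3% of control, a log2 difference of -1.63. It was 3.19-fold higher with Nup210 shRNA than with Mef2c shRNA. Around the rank that chose it stood Mef2c with a log2 difference of -2.48 and Igf2, a growth factor, with -1.43, followed by Mtap, an enzyme of methionine salvage, with -1.30. The Nup210 comparison did not choose Slc30a5 and can be tested: the log2 difference from control was 0.04 (95% interval -0.07 to 0.16, limma adjusted p = 0.758).

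**Figure D1:**
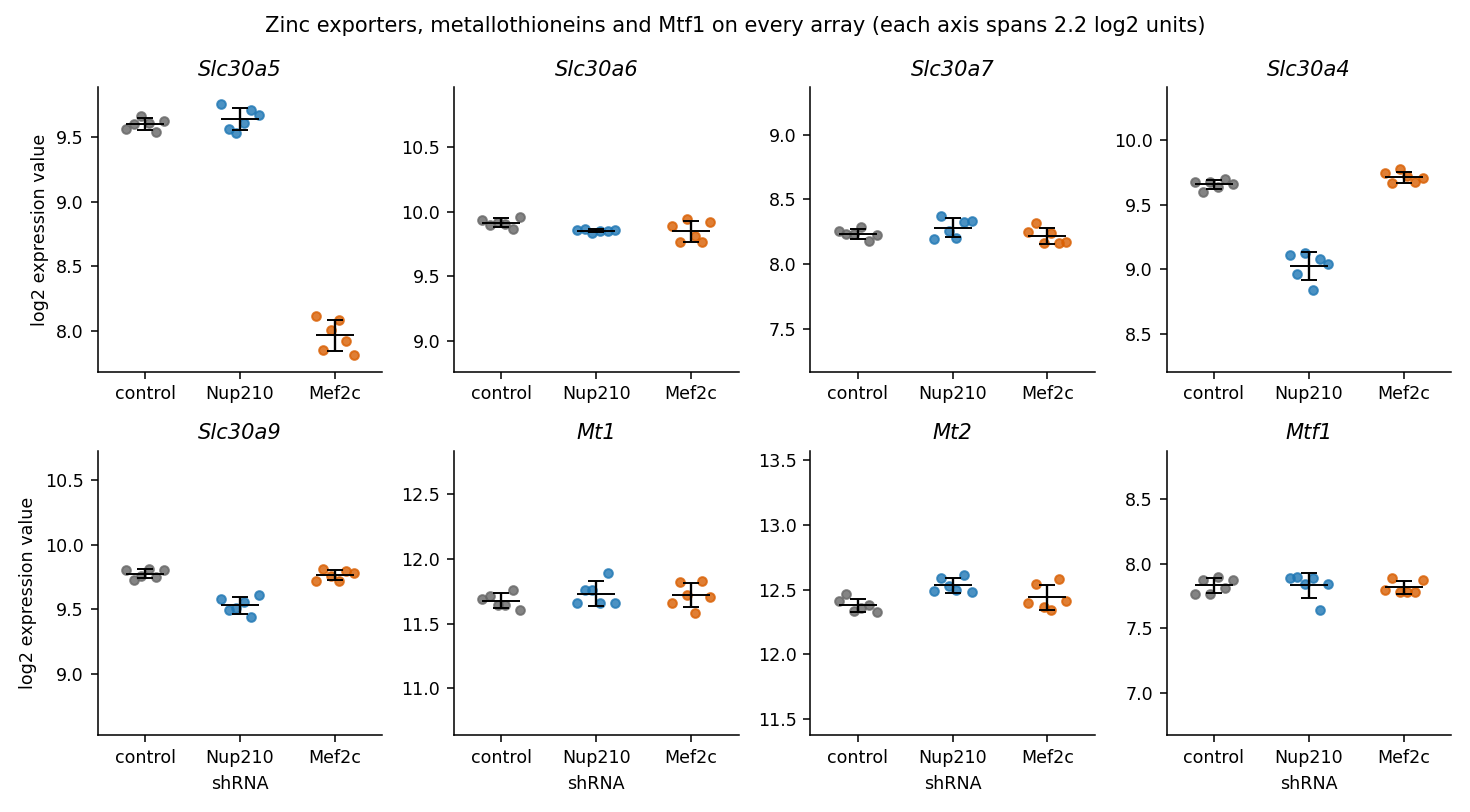
Log2 expression (deposited RMA values, vertical axis) of the 8 measured genes on each of the 18 arrays, by shRNA group; each point is 1 array, bars are the group mean and SD (n = 6), and each panel spans 2.2 log2 units, so heights compare within a panel and not between genes. Slc30a5 separates the Mef2c shRNA arrays (7.82 to 8.12), Slc30a4 separates the Nup210 shRNA arrays (8.84 to 9.13), and the Mt1 groups overlap.

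The genes of the ZnT5 partner and of its Golgi relative were called in neither comparison with control. Slc30a6, which encodes the ZnT6 subunit, read 9.94, 9.89, 9.92, 9.91, 9.87 and 9.96 on the control arrays and 9.89, 9.76, 9.94, 9.81, 9.76 and 9.92 on the Mef2c shRNA arrays. These values overlapped, with a log2 difference of -0.07 (interval -0.15 to 0.01, limma adjusted p = 0.310). The Nup210 shRNA arrays lay between 9.83 and 9.86, just under the lowest control array, yet the difference of -0.06 (interval -0.14 to 0.02) was not called (adjusted p = 0.389). Slc30a7 encodes ZnT7, the other zinc transporter of the Golgi. Its control arrays read 8.26, 8.23, 8.23, 8.29, 8.17 and 8.23, its Nup210 shRNA arrays ran from 8.20 to 8.37 and its Mef2c shRNA arrays from 8.16 to 8.32. All 3 groups overlapped, with log2 differences from control of 0.05 for Nup210 shRNA (interval -0.04 to 0.13) and -0.02 for Mef2c shRNA (interval -0.11 to 0.07), neither of them called (limma adjusted p = 0.614 and 0.853).

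Slc30a4 encodes ZnT4, a vesicular zinc transporter whose loss in the lethal milk mouse leaves milk short of zinc. Its control arrays read 9.68, 9.60, 9.67, 9.64, 9.70 and 9.66. The arrays labelled Nup210 shRNA read 9.11, 8.96, 9.13, 8.84, 9.08 and 9.04, all below the lowest control array. The Mef2c shRNA arrays read 9.74, 9.67, 9.78, 9.72, 9.67 and 9.70, overlapping the control arrays at the upper end. Slc30a4 thus fell with Nup210 shRNA, to 64.5% of control (log2 difference -0.63, SE 0.046, interval -0.73 to -0.54, limma adjusted p = 1.89e-07), the fall of rank 53 among all genes. With Mef2c shRNA it was at 104% of control and not called (0.06, interval -0.04 to 0.15, adjusted p = 0.537). The direct comparison put the Nup210 shRNA arrays at 62.1% of the Mef2c shRNA arrays (-0.69, SE 0.046, adjusted p = 2.35e-08). The 2 exporters thus stood low in different groups, Slc30a5 in the group of Mef2c shRNA and Slc30a4 in the group of Nup210 shRNA.

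Slc30a9, whose product ZnT9 exports zinc from mitochondria, was also lower on the arrays labelled Nup210 shRNA. Its control arrays read 9.80, 9.73, 9.76, 9.81, 9.75 and 9.80. The Nup210 shRNA arrays read 9.58, 9.50, 9.51, 9.55, 9.44 and 9.61, with no overlap. The Mef2c shRNA arrays lay between 9.72 and 9.81 and overlapped the control arrays. The fall with Nup210 shRNA was smaller than that of Slc30a4 on the log2 scale, to 84.4% of control (-0.24, SE 0.037, interval -0.32 to -0.17, limma adjusted p = 0.000342), and the group stood at 85.0% of the Mef2c shRNA group (-0.23, SE 0.037, adjusted p = 0.000194). With Mef2c shRNA the difference from control was -0.01 (interval -0.09 to 0.07, adjusted p = 0.914).

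Metallothioneins answer readily to free zinc in many cells. Mt1 read 11.69, 11.71, 11.64, 11.65, 11.76 and 11.60 on the control arrays and 11.66, 11.82, 11.72, 11.58, 11.83 and 11.71 on the Mef2c shRNA arrays. The arrays labelled Nup210 shRNA read 11.66, 11.76, 11.76, 11.66, 11.89 and 11.66. The 3 groups overlapped. The log2 difference from control was 0.04 for Mef2c shRNA (interval -0.06 to 0.15, limma adjusted p = 0.679) and 0.06 for Nup210 shRNA (interval -0.05 to 0.17, adjusted p = 0.615).

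Mt2 read 12.41, 12.46, 12.34, 12.36, 12.38 and 12.33 on the control arrays and 12.40, 12.54, 12.37, 12.34, 12.58 and 12.41 on the Mef2c shRNA arrays. These overlapped, with a difference of 0.06 (interval -0.04 to 0.16, limma adjusted p = 0.502). The arrays labelled Nup210 shRNA read 12.49, 12.59, 12.53, 12.50, 12.62 and 12.48, all above the highest control array. Mt2 was thus at 111% of control with Nup210 shRNA (0.15, SE 0.047, interval 0.06 to 0.25), just past the threshold (adjusted p = 0.0498). That call was kept in 7 of 28 alternative fits. It was lost without any single Nup210 array, without control arrays 1, 3, 4, 5 or 6, and without Mef2c shRNA arrays 1, 3, 4 or 6, with adjusted p from 0.05003 to 0.114 in those fits. The difference between Nup210 and Mef2c shRNA was 0.09 (interval 0.00 to 0.19, adjusted p = 0.231). Mt1 and Mt2 are close relatives, and whether the probes of one also bind the transcript of the other was not tested.

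The 2 metallothioneins were compared from array to array within each group. Pearson's r between them over the 6 arrays of a group was 0.931 with Nup210 shRNA (exact permutation p = 0.0125, 0.0271 adjusted over the 3 groups), 0.899 with Mef2c shRNA (p = 0.0181, adjusted 0.0271) and 0.647 with control shRNA (p = 0.169, adjusted 0.169). Spearman's rho was 0.886 (exact permutation p = 0.0333), 0.829 (p = 0.0583) and 0.829 (p = 0.0583), each 0.0583 after adjustment. Without the 2 arrays farthest from the group's median of Mt1, r was 0.833, 0.859 and 0.985 over 4 arrays. Array 5 had the highest Mt1 value in all 3 groups, so the 3 correlations may not be independent. With the values centred or quantile-normalized again, the adjusted p of r in the Mef2c shRNA group was 0.0542 or 0.0583.

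**Figure D2:**
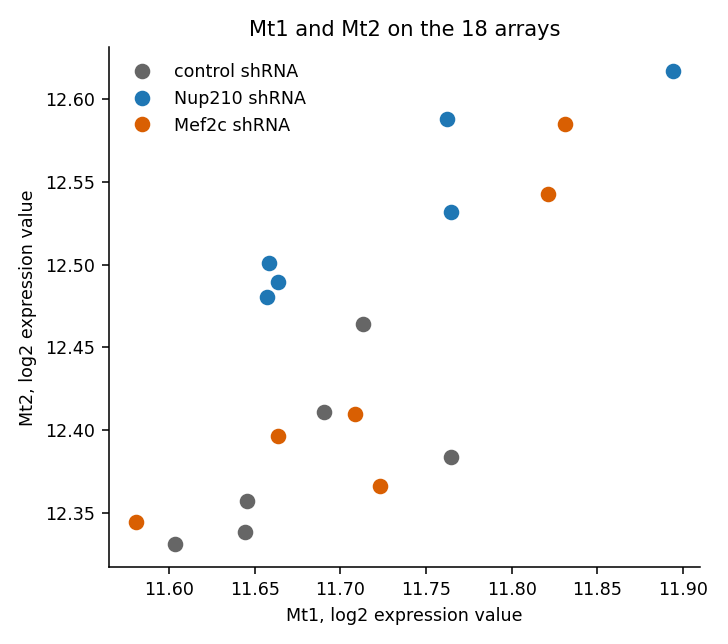
Log2 expression of Mt2 (vertical axis) against Mt1 (horizontal axis); each point is 1 of the 18 arrays, marked by shRNA group. Within each group arrays high in Mt1 tend to be high in Mt2 (r = 0.647, 0.931 and 0.899 for control, Nup210 and Mef2c shRNA), and the Nup210 shRNA arrays lie above the control arrays in Mt2 (12.48 to 12.62 against 12.33 to 12.46).

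Mtf1 was called in neither comparison with control. Its values ran from 7.76 to 7.90 on the control arrays, from 7.64 to 7.90 with Nup210 shRNA and from 7.78 to 7.89 with Mef2c shRNA. The log2 difference from control was 0.00 for Nup210 shRNA (interval -0.09 to 0.10, limma adjusted p = 0.986) and -0.01 for Mef2c shRNA (interval -0.11 to 0.08, adjusted p = 0.907).

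Counted over the set, the 7 measured genes other than Slc30a5 gave 0 calls with Mef2c shRNA at a limma adjusted p under 0.05, where 10.8% of all genes were called (4.34% higher and 6.42% lower), and 0 had an unadjusted p under 0.05. The lowest unadjusted p among them was 0.0898, and the arrays of both groups overlapped for all 7, while 7.74% of all genes had no overlap. With Nup210 shRNA, 1 of 8 genes was called higher (Mt2) and 2 lower (Slc30a4 and Slc30a9), where 8.16% of all genes were called, 3.05% higher and 5.11% lower. Groups did not overlap for 4 of 8 genes, Slc30a6 included, against 5.63% of all genes. Between the targeting shRNAs, 2 of the 7 genes other than Slc30a5 were called, both lower with Nup210 shRNA, where 14.0% of all genes were called (7.10% higher and 6.93% lower). These 2 were also the only ones of the 7 whose arrays did not overlap there, against 8.62% of all genes. The median log2 difference of the 8 genes was -0.01 with Mef2c shRNA and 0.02 with Nup210 shRNA, beside 0.02 and 0.02 over all genes. The first of these medians holds the fall that chose Slc30a5 and is only a description. Over all genes, 963 were higher and 1423 lower with Mef2c shRNA; with each array centred on its median, 592 were higher and 1601 lower. Both comparisons with control use the same control arrays. All 8 genes lay above the receptor level given earlier, against 58.7% of all genes. Their SEs ran from 0.037 (Slc30a9) to 0.055 (Slc30a5), below the median of 0.080 over all genes. The shares of all genes therefore include many dimmer genes and are not a matched yardstick for these 8. Shares among genes of like level were not counted, here or for the lists below.

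**Figure D3:**
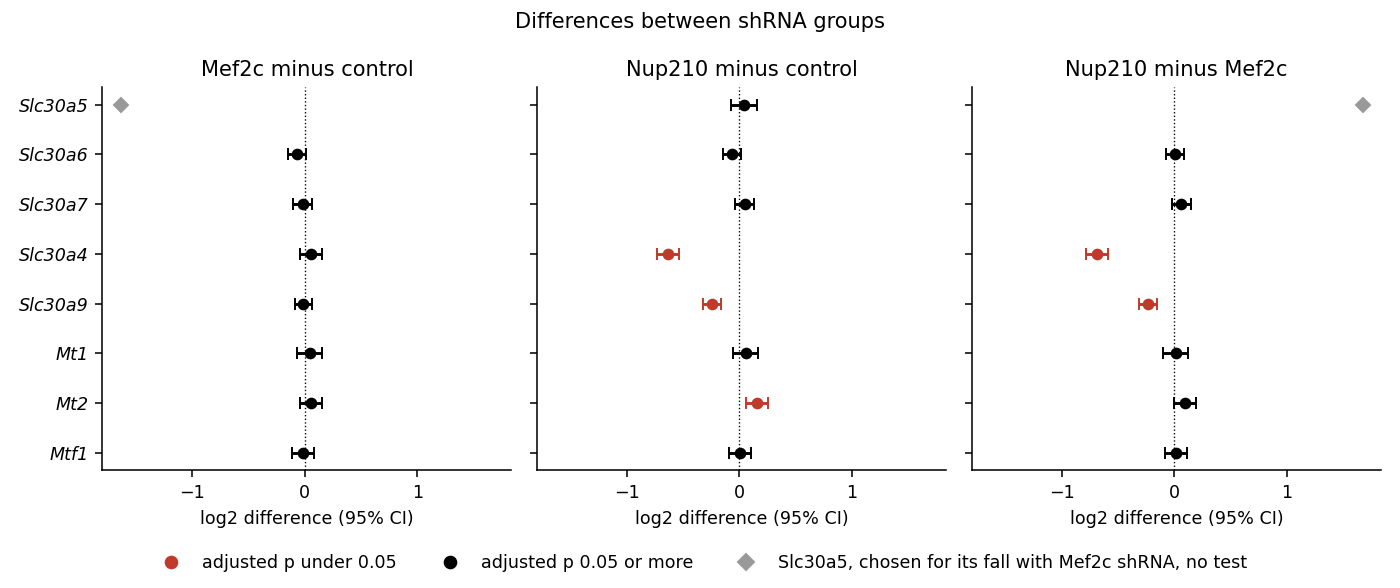
Log2 differences (horizontal axis) of the 8 measured genes in the 3 comparisons, with 95% intervals from the limma fit for tested values; red marks a limma adjusted p under 0.05, and the grey diamond is Slc30a5 where it was chosen for its fall with Mef2c shRNA, drawn without an interval or test. Slc30a5 stands at -1.63 with Mef2c shRNA while the intervals of the other 7 genes include 0, and Slc30a4 stands at -0.63 with Nup210 shRNA.

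The genes whose levels followed Slc30a5 most closely over the 18 arrays were Mtap (r = 0.987), Ppic, a prolyl isomerase of the secretory pathway (0.986), Mtdh (0.983), Mef2c (0.982) and Serp1, an endoplasmic reticulum membrane protein (0.975). All 5 were lower with Mef2c shRNA, which their choice by likeness to Slc30a5 over these arrays made near certain. Their log2 differences there were -1.30, -1.12, -0.48, -2.48 and -0.41 in that order. After each group's mean was removed, r was 0.02 for Mtap, 0.02 for Ppic and 0.0018 for Mef2c, though 0.57 for Mtdh and 0.34 for Serp1. For Mt1 and Mt2 the highest mean r over the 18 arrays was that of N4bp1 (0.836), Nt5dc2 (0.819), Slc25a30 (0.807), Hgd (0.804) and Rpl28 (0.802). After group means were removed it was 0.849, 0.815, 0.778, 0.782 and 0.788 in that order. They are descriptions over arrays that share their normalization.

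In the order of the RefSeq gene table, Cenph, a kinetochore gene, is the measured gene just before Slc30a5. It was also lower with Mef2c shRNA (log2 difference -0.44, SE 0.093, limma adjusted p = 0.00412), and on the other side Gm10257 was not called (-0.10). Mt2 and Mt1 are next to each other, with Mt3 before them and Nup93, a nuclear pore gene, after them. Nup93 was lower with Mef2c shRNA (-0.29, adjusted p = 0.000439). The measured neighbours of Slc30a4 (Spata5l1 and 4930417H01Rik) and of Slc30a9 (Tmem33 and Bend4) were not called with Nup210 shRNA. Extl2, after the uncalled Slc30a7, was lower there (-0.24, limma adjusted p = 0.00575), and Dph5 before it was not called. The neighbours of Slc30a6 (Spast and Nlrc4) and of Mtf1 (Mir697 and Yrdc) were called in neither comparison with control. Over all genes 10.8% were called with Mef2c shRNA and 8.16% with Nup210 shRNA.

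Among the remaining ZnT genes and metallothioneins, 6 of 6 were measured but only 3 lay above the receptor guide to background. With Mef2c shRNA 1 was higher, the vesicular zinc transporter gene Tmem163 (log2 difference 0.23, limma adjusted p = 0.0348), and its call was lost without Mef2c shRNA array 1, 2, 3 or 5 or control array 1, 3 or 6 (adjusted p from 0.0546 to 0.0871). With Nup210 shRNA 0 of the 6 were called. Over all genes 10.8% were called with Mef2c shRNA (4.34% higher) and 8.16% with Nup210 shRNA.

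Zinc importers are the Slc39a genes. Of 14 measured, 11 above the background guide, 0 were higher and 1 lower with Mef2c shRNA, and 0 were higher and 2 lower with Nup210 shRNA, where 10.8% and 8.16% of all genes were called. Their median log2 differences were -0.02 and 0.02, beside 0.02 and 0.02 over all genes. Slc39a14, an importer of zinc and iron, was lower with Mef2c shRNA (-0.17, limma adjusted p = 0.0193). With Nup210 shRNA it was called at -0.15 (adjusted p = 0.0446), a call lost without Nup210 array 1, 2, 3, 4 or 5, Mef2c shRNA array 1, 3, 4 or 6, or control array 1, 3, 4, 5 or 6 (adjusted p from 0.0507 to 0.102). Slc39a13, which releases zinc from the secretory pathway and is mutated in a connective tissue disorder, fell with Nup210 shRNA (-0.17, adjusted p = 0.00673) and was lower there than with Mef2c shRNA (-0.15, adjusted p = 0.0129). Between the targeting shRNAs 1 importer was higher with Nup210 shRNA, Slc39a6 (0.19, adjusted p = 0.0312), a call lost without Nup210 array 2, 5 or 6 or Mef2c shRNA array 1, 3, 4 or 5 (adjusted p from 0.0512 to 0.0712).

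Published MTF-1 targets beside the set numbered 7, all measured, and are set beside the 10.8% and 8.16% of all genes called with Mef2c and Nup210 shRNA. With Mef2c shRNA 2 of 7 were higher, the selenoprotein gene Selenow (log2 difference 0.33, limma adjusted p = 0.00486) and the iron exporter gene Slc40a1 (0.52, adjusted p = 0.00162), and 1 was lower, Csrp1 (-0.41, adjusted p = 7.15e-05), a LIM protein of the cytoskeleton. The list's median was -0.06. With Nup210 shRNA 0 were higher and 2 lower, Hmox1, which breaks down haem (-0.20, adjusted p = 0.00746), and Csrp1 (-0.19, adjusted p = 0.0441). The Csrp1 call was lost without Nup210 array 1, 2, 3, 4 or 5, Mef2c shRNA array 1, 2, 3 or 6, or control array 1, 2, 3, 4 or 6 (adjusted p from 0.0509 to 0.107). The median there was -0.10.

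Zinc-dependent enzymes of the secretory pathway receive zinc through exporters such as ZnT5, ZnT6 and ZnT7. Of a list of 14 genes 13 were measured. It also holds Lox, an extracellular oxidase that needs copper and is left out of the counts here. Of the other 12, 2 were higher with Mef2c shRNA, the matrix metalloproteinase gene Mmp2 (0.40, limma adjusted p = 0.0127) and the sphingomyelinase gene Smpd1 (0.16, adjusted p = 0.0125), where 4.34% of all genes were higher. The Smpd1 call was lost with each array centred on its median (adjusted p = 0.0807) and with probe sets averaged (0.103). With Mef2c shRNA 2 were lower, where 6.42% of all genes were: the sheddase gene Adam17 (-0.32, adjusted p = 0.000449) and the procollagen protease gene Bmp1 (-0.16, adjusted p = 0.0416). The Bmp1 call was lost without Mef2c shRNA array 1, 2, 3, 5 or 6, control array 1, 3, 4 or 6, or Nup210 array 1 (adjusted p from 0.0504 to 0.103). With Nup210 shRNA 2 were lower, Adam17 (-0.28, adjusted p = 0.00195) and the peptidase gene Ace (-0.39, adjusted p = 0.0221), and 1 was higher, the phospholipase gene Gpld1 (0.24, adjusted p = 0.0292), where 5.11% and 3.05% of all genes were. The call of Ace was lost without Nup210 array 2, 4 or 6 or control array 3 or 5 (adjusted p from 0.0507 to 0.0562). That of Gpld1 was lost without Nup210 array 1, 3 or 6 or control array 1, 2 or 3 (adjusted p from 0.0523 to 0.0710). Median differences of the 12 were 0.04 and -0.01. Lox itself was lower with Mef2c shRNA (-0.25, limma adjusted p = 0.0157) and with Nup210 shRNA (-0.32, adjusted p = 0.00379).

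**Figure D4:**
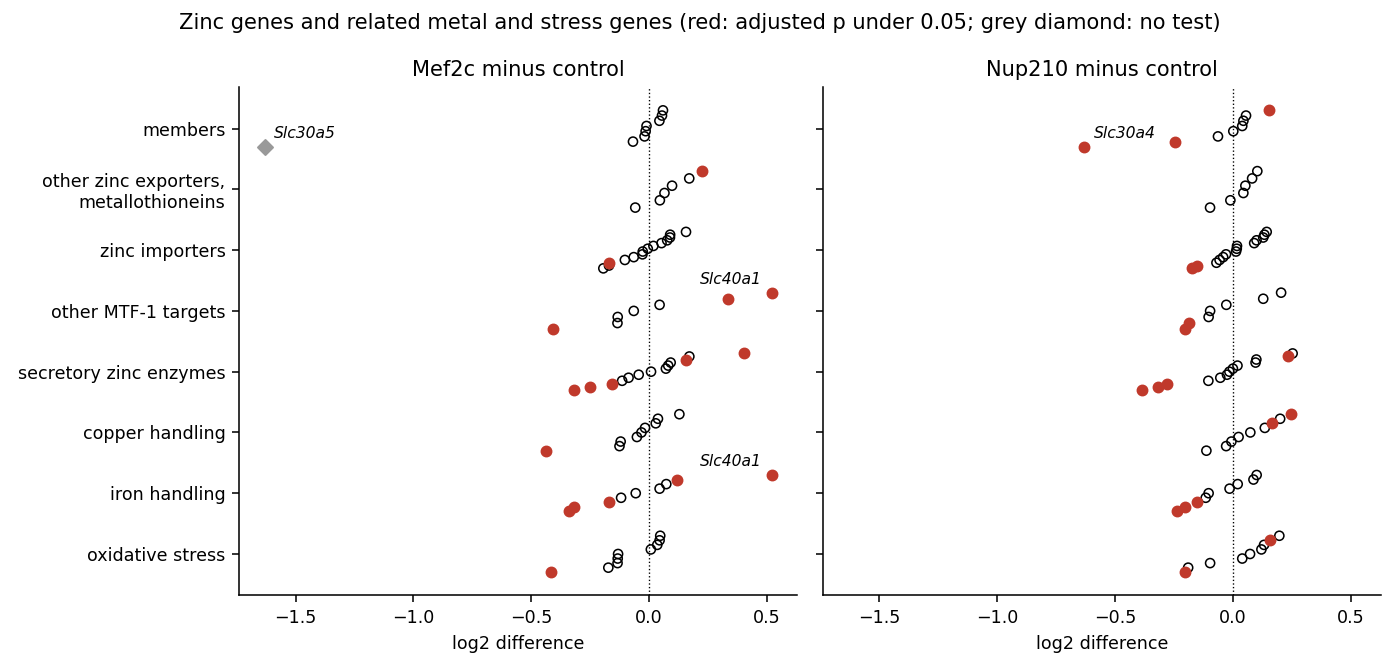
Log2 differences from control shRNA (horizontal axis) of each gene in the metal-handling lists, for Mef2c shRNA and Nup210 shRNA; each point is 1 gene, red marks a limma adjusted p under 0.05, and the grey diamond is Slc30a5 with Mef2c shRNA, which has no test (the list of secretory enzymes is drawn with Lox). Genes of each list lie on both sides of 0, and Slc30a5 (-1.63) lies farther out than any other gene drawn.

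Genes that handle copper and iron are likewise set beside 10.8% and 8.16% of all genes called with Mef2c and Nup210 shRNA. Of 9 measured copper genes, Atp7a, a copper pump, was the 1 lower with Mef2c shRNA (log2 difference -0.44, limma adjusted p = 0.000396). With Nup210 shRNA 2 were higher, the zinc and copper enzyme gene Sod1 (0.25, adjusted p = 0.000324) and its copper chaperone gene Ccs (0.17, adjusted p = 0.0277). The Ccs call was lost without Nup210 array 1 or 2 or control array 1, 5 or 6 (adjusted p from 0.0594 to 0.0669), and under several other settings, with adjusted p up to 0.216. Of 9 measured iron genes 2 were higher with Mef2c shRNA, Slc40a1 and the ferritin gene Fth1 (0.12, adjusted p = 0.0369). The Fth1 call was lost without Mef2c shRNA array 1, 2, 3, 5 or 6 or control array 1, 2, 3, 4 or 6 (adjusted p from 0.0505 to 0.0953). There 3 were lower, Slc39a14, the transferrin receptor gene Tfrc (-0.34, adjusted p = 0.000168) and Ireb2, an iron-sensing RNA-binding protein (-0.32, adjusted p = 0.000279). With Nup210 shRNA 3 were lower, Steap3, an iron reductase gene (-0.24, adjusted p = 0.0087), Slc39a14 and Hmox1.

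NRF2 and oxidative stress genes share inducers with metallothioneins. Of 9 measured, 1 was lower with Mef2c shRNA, where 10.8% of all genes were called. It was Slc7a11 (log2 difference -0.41, limma adjusted p = 0.0199), whose probe set lay below the background guide and whose call was lost without control array 4 (adjusted p = 0.0530) and with probe sets averaged (0.287). With Nup210 shRNA, where 8.16% of all genes were called, 1 was higher, Sqstm1 (0.16, adjusted p = 0.0143), and 1 lower, Hmox1. Directly between the targeting shRNAs, 5 were higher (Nqo1, Txnrd1, Gclm, Gsr and Sqstm1) and 1 lower (Hmox1) with Nup210 shRNA, where 14.0% of all genes were called. Without the 3 Nup210 arrays of lowest weight Nqo1, Txnrd1 and Gclm lost these calls (adjusted p = 0.0979, 0.0972 and 0.0637), as did Gsr and Sqstm1. Of these, Gsr and Sqstm1 lost their calls in 12 and 10 of the 18 fits that left out 1 array. In that comparison 1 of 7 MTF-1 targets was higher and 2 were lower, 0 and 2 of the 12 secretory enzymes, 2 and 0 of the copper genes, and 3 and 5 of the iron genes.

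Markers of the cell state moved on the same arrays as the zinc genes, and their part in those differences was not tested. Over all genes 8.16% were called with Nup210 shRNA (3.05% higher and 5.11% lower). With Mef2c shRNA the share was 10.8% (4.34% higher and 6.42% lower), and between the targeting shRNAs 14.0%. With Nup210 shRNA 3 of 8 myotube markers fell, Ckm (log2 difference -0.39, limma adjusted p = 0.000167), Myh3 (-0.20, adjusted p = 0.00143) and Mymk (-0.14, adjusted p = 0.00442), and 0 rose. Of 6 markers of undifferentiated myoblasts or reserve cells, Myf5 (0.66, adjusted p = 9.48e-05) and Myod1 (0.26, adjusted p = 0.00266) rose and Sdc4 fell (-0.27, adjusted p = 9.9e-05). With Mef2c shRNA 3 myotube markers fell, Actn2 (-0.67, adjusted p = 4.18e-06), Myh3 (-0.39, adjusted p = 1.92e-06) and Acta1 (-0.16, adjusted p = 0.00304). There Myf5 rose (0.33, adjusted p = 0.0192), a call lost without Mef2c shRNA array 5 (adjusted p = 0.05004), and Cdh15 fell (-0.33, adjusted p = 6.23e-05). The mean level of the myoblast list overlapped between groups (9.20 to 9.41 with control, 9.25 to 9.44 with Nup210 and 9.20 to 9.36 with Mef2c shRNA). Of the markers of osteoblasts, adipocytes, immune cells, and hepatocytes or pancreas, 0 were called in any comparison, and 2 of 4, 1 of 3, 1 of 4 and 1 of 4 were above the background guide. Of 4 fibroblast markers Col1a1 was lower with Mef2c shRNA (-0.55, adjusted p = 0.00978). Of 4 neuronal markers Tubb3 was lower with Mef2c shRNA (-0.55, adjusted p = 0.0386) and with Nup210 shRNA (-0.62, adjusted p = 0.0244), and these calls were lost without several single arrays, with adjusted p up to 0.0968 and 0.0622.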

How the data were processed

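The deposited values are log2 expression per probe set, made with RMA and Partek per the submitters' processing notes. Not given in the sources used here are their versions, the genome build and scan dates. RMA makes array distributions alike and compresses differences of dim genes. Of 41345 probe sets, 23521 carried 1 symbol, 1814 several and 16010 none, and 23328 of the first matched RefSeq (GRCm38.p6) by Entrez identifier. Each of the 22180 genes was represented by its probe set of highest mean. The background guide is the 95th percentile (5.47) of 1394 olfactory and vomeronasal receptor genes.

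All 18 arrays were fitted in limma 3.58.1 (R 4.3.3), 1 mean per group, with a call at a Benjamini-Hochberg adjusted p under 0.05 over all genes. The fit was tested on simulated data. Alternatives were 10 other fits and leaving out each of the 18 arrays. Correlations with Slc30a1 were not computed because it has no probe set of its own.

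Members and lists were chosen with earlier results of these data known. Named genes were all members, Mef2c and Nup210, the falls around that of Slc30a5, the 5 closest patterns and the nearest measured neighbours. Of each list, up to 4 called genes per comparison were planned to be named. Some lists name more, and some called genes between the targeting shRNAs are only counted. The iron gene Ftl1, the enzyme gene Enpp2 and a few other list genes had no probe set of their own and were not analysed here.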

Additional observations from a re-analysis of the deposited data

Results flagged for a closer look

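Among 24 combinations of a gene and a group of 6 arrays, 2 held an array far from the other 5; chance flags about 1 in 20 such groups. Slc30a6 read 9.83 on array 3 labelled Nup210 shRNA, where the nearest of the other arrays was at 9.85 and the highest at 9.86. Mtf1 read 7.64 on array 5 labelled Nup210 shRNA, with the nearest at 7.84 and the highest at 7.90.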

How the results depend on the processing

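The calls of Slc30a4 and Slc30a9 in both comparisons of the Nup210 shRNA arrays held in 28 of 28 alternative fits. The log2 difference of Slc30a5 with Mef2c shRNA kept its size. The call of Mt2 with Nup210 shRNA was lost in 21 of 28 fits, with adjusted p up to 0.368. That value came from leaving out Nup210 arrays 2, 4 and 5, which had the lowest quality weights, a setting chosen after seeing the data. Without those arrays Slc30a4 stood at -0.57 and Slc30a9 at -0.21 (limma adjusted p = 0.0150), 563 genes were called in all against 1809, and Hmox1, Adam17, Lox, Steap3, Sqstm1, Mymk and Myod1 lost their calls with Nup210 shRNA (adjusted p = 0.121, 0.0635, 0.139, 0.116, 0.269, 0.0716 and 0.105). At an adjusted p under 0.01 the counts over all genes were 1302 with Mef2c shRNA, 904 with Nup210 shRNA and 1899 between them. Renewed quantile normalization and median centring gave r between Mt1 and Mt2 in the Mef2c shRNA group of 0.864 (exact permutation, adjusted p = 0.0583) and 0.872 (adjusted p = 0.0542). Leaving out 1 array moved the Nup210 difference from control between -0.140 and -0.0816. The cause of these changes was not tested.

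The labels give no meaning to the replicate numbers. Deviations of same-numbered arrays correlated at -0.18 to 0.22, above 0.1 in 6 of 18 pairs, all 3 pairs of number 5 among them. The main fit did not pair the arrays by number, because the labels do not. In 22 of 36 checks of an array against the 6 arrays of another group, it correlated best with its own number. That is more often than numbers without meaning would give. It is seen in the data and not stated in the design, and the main fit does not allow for it. With the replicate number as a block, the counts over all genes were 2862, 2221 and 3528, Mt2 kept its call (limma adjusted p = 0.0160), Ccs lost its call with Nup210 shRNA (0.0510), and the calls of the 8 genes were those of the fit without it.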
